A study of Mus musculus with 6 samples.

Results

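Immediate early genes are switched on within minutes of a stimulus, without new protein synthesis, and their transcripts are short-lived. The 10 genes described here, Fos, Fosb, Fosl2, Jun, Junb, Jund, Egr1, Atf3, Ier2 and Ier3, were taken by gene symbol from the 17441 genes of a mouse liver RNA-seq table. All 10 passed the filter on low counts. FOS and JUN proteins pair through leucine zippers to form AP-1, a transcription factor that binds DNA as a dimer. EGR1 is a zinc finger factor, ATF3 is a stress-induced bZIP factor, and IER2 and IER3 are small early response proteins. In liver this group is known for its response to growth factors, partial hepatectomy, toxic injury and tissue handling.

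The data come from 3 wild-type (WT) livers and 3 livers labelled iKO, in which Nek7 is deleted throughout the body after tamoxifen. NEK7 is a mitotic kinase that also takes part in the NLRP3 inflammasome. Both groups were sampled 10 days after tamoxifen, and the tissue was frozen in liquid nitrogen. The labels number the livers within each group and say nothing of the Cre driver, strain, age, sex or hour of collection. The p-values set the group difference against the spread between livers of a group in these samples, and cannot separate such unstated factors. The comparison asks how the liver transcriptome of the labelled knockout differs from WT, in a series whose title concerns acetaminophen injury and cell cycle control.

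Several features of the libraries touch all results. Totals ran from 18139507 to 19911983 expected counts. Nek7 was read at 55.5, 40.5 and 36.3 CPM (counts scaled to library size, TMM-normalised) across WT, against 50.2, 32.8 and 31.0 CPM across the livers labelled iKO, so the targeted gene's total did not set the groups apart, and a gene total does not show whether a deleted part is missing. WT 2 and WT 3 held no reads of the Y-linked genes Ddx3y and Kdm5d, while the other 4 libraries did, so this split and the group label overlap. The TMM factor of iKO 1, 0.780, was the lowest and that of WT 2, 1.18, the highest. A low factor raises a library's CPM. Fold changes also fell with transcript length (Spearman's rho -0.35 across 12995 genes, which are not independent replicates). The effective lengths of the 10 genes ran from 1042 to 5817 bases, with a median of 2444 against 2822 for all tested genes. The 8 hepatocyte markers summed to between 100469 and 115974 CPM in every library, with 2 called higher by edgeR (Tat by 1.64 and Hnf4a by 0.79 on the log2 scale) and a median of 0.45. Hnf4a was not called when any single library was left out. Alb and Cps1 went the other way, by -0.18 and -0.44 on the log2 scale, neither called. Every iKO library lay below every WT library for Cps1. Alb alone measured 66386 to 91157 CPM, so the sum says little about the other hepatocyte markers. Markers of 4 other cell types were mostly lower in the livers labelled iKO. The 8 stellate cell and fibroblast markers summed to 298 to 498 CPM in WT and to 138 to 176 CPM in iKO, with 6 called lower. The 8 Kupffer cell markers summed to 278 to 504 and 158 to 218 CPM, also with 6 called lower. The 8 endothelial markers summed to 163 to 259 and 74.1 to 143 CPM, with 3 called lower. The 8 neutrophil markers summed to 29.0 to 122 and 15.1 to 36.8 CPM, with 5 called lower. Leaving out 1 library gave 5 to 7 lower calls for the stellate list, 1 (without WT 2) to 7 for the Kupffer list, 0 (without WT 2 or WT 3) to 4 for the endothelial list and 1 (without iKO 2 or iKO 3) to 5 for the neutrophil list. The Kupffer count was 3 without WT 3, 4 without iKO 1 and 2 without iKO 3, the endothelial count 1 without iKO 1 and 2 without iKO 3, and the neutrophil count 3 without WT 3 and 2 without iKO 1. With a Y-linked term in the model the 4 counts were 3, 0, 0 and 1. Within these lists the Kupffer marker Marco and the neutrophil marker Cxcr2 went the other way, by 0.10 and 0.57 on the log2 scale, neither called. Of 7 T and NK cell and 6 cholangiocyte markers 0 were called by edgeR, with medians of -0.07 and 0.47. The cholangiocyte markers summed to 120 to 203 CPM in WT and to 73.1 to 414 CPM in iKO. No marker was at 0 in all 6 libraries. In whole tissue, fewer cells of a type and less RNA per cell cannot be told apart. The part of these differences in the results below was not tested.

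Sequences from the start of 4 of the genes are shown because they carry letters of the cyclic AMP response element, which CREB and ATF family factors are known to bind. RefSeq promoters (GRCm38.p6) were matched for 8 of the 10 genes, all but Egr1 and Ier2, and the 250 bases before the start were searched on both strands. The core TGACG, which also lies within the full site TGACGTCA, was found in 4 of the 8, Fos, Fosb, Junb and Atf3, and in 25.0% of 13474 promoters of tested genes. The Jun promoter held TGACATCA, found in 1.60% of the same promoters. The full site, the AP-1 site TGANTCA and the CArG box were found in 0 of the 8. Their shares among promoters of tested genes were also low, at 2.35%, 4.72% and 1.05%. Sites further than 250 bases before the start were not searched. Capitals mark TGACG, or TGACATCA in Jun, in the bases next to the start, written in the direction of the gene. The stretches are chr12:85473750-85473889 (plus strand) for Fos, chr7:19310046-19310145 (minus strand) for Fosb, chr4:95052223-95052322 (minus strand) for Jun and chr8:84978749-84978888 (minus strand) for Junb.
Fos: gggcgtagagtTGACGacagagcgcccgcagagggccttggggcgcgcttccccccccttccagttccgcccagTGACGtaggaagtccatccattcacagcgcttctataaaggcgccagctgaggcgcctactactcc
Fosb: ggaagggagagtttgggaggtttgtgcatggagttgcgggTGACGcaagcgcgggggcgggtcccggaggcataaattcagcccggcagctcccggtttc
Jun: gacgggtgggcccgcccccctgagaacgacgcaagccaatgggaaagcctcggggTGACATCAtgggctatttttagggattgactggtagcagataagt
Junb: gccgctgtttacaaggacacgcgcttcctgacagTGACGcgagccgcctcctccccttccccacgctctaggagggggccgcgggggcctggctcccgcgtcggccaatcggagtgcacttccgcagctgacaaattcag
Fos carries TGACG at 2 places, the other genes shown carry their element at 1.

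The second feature looked at lies in the transcript, and not all 10 genes carry it. AU-rich elements in the 3′ UTR are known to shorten the life of early response mRNAs, and their core TATTTAT was counted in the longest annotated 3′ UTR of each gene (GENCODE M21). The core was present in 7 of the 10 genes and in 29.9% of 12707 tested genes. Ier3 held 4 copies in 613 bases, where 17.6% of the 500 genes nearest in 3′ UTR length held any. Fosl2 held 3 copies in 4653 bases, where 63.4% of the 500 nearest genes held any. Fos held 2 in 815 bases (20.8%). Fosb, Jun, Jund and Atf3 held 1 each, where the shares were 41.6%, 28.0%, 13.8% and 26.6%. Junb, Egr1 and Ier2 held 0. A site of 30 bases is shown for Ier3, the gene with the most copies, and for Fos, with the core in capitals.
Ier3: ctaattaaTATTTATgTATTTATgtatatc
Fos: gtgttttcaattTATTTATtaagatggatt

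In the livers labelled iKO the mean of each of the 10 genes was higher than in WT, by 1.91-fold (Jund) to 7.95-fold (Fosb). By edgeR only Ier3 and Fosl2 passed the test, 2 of 10 higher and 0 lower. Over all 13160 tested genes 15.4% were called, and 7.31% were called higher. At an unadjusted p under 0.05 by edgeR the count was 6 of 10. The shares above are for adjusted p, and the share of all tested genes at this looser threshold was not counted. Junb, at an unadjusted p of 0.0497, had an adjusted p of 0.150. The median log2 fold change of the 10 genes was 1.44 against -0.02 for all tested genes. The 3 livers labelled iKO all lay above the 3 WT livers for 5 genes, Fosl2, Jund, Atf3, Ier2 and Ier3. Over all tested genes the groups did not overlap in 39.0%, and in 19.8% every iKO library lay above every WT library. On the deposited FPKM scale the same 5 genes were separate, and on the TPM scale 4 of them, without Ier2.

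**Figure D1:**
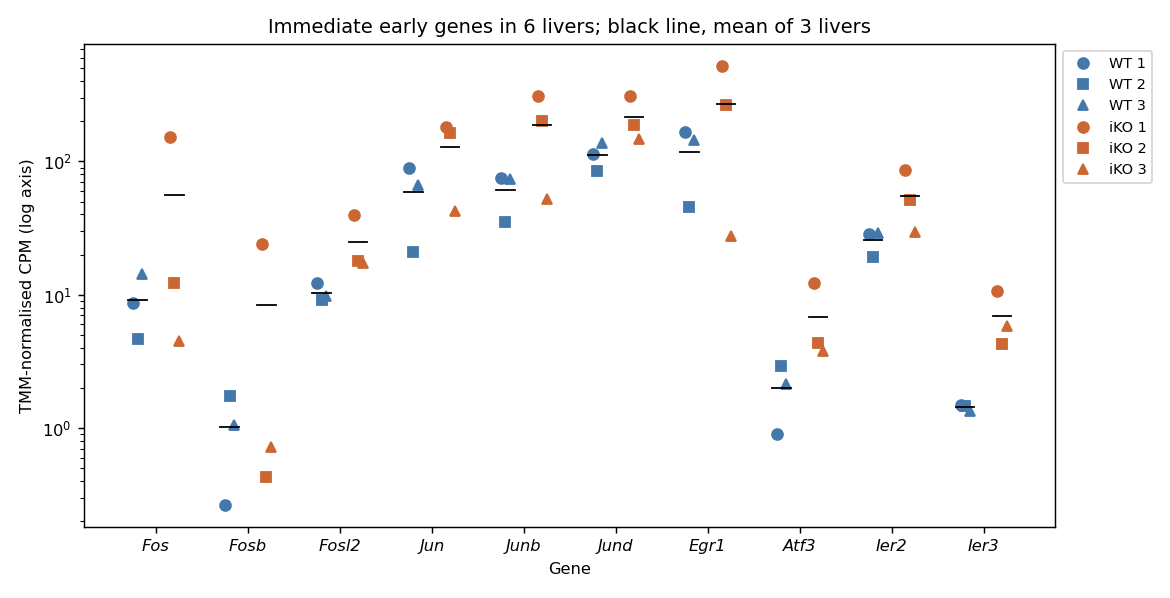
TMM-normalised CPM (log axis) of the 10 genes in each of 6 livers; blue, WT; orange, livers labelled iKO; symbols give the liver number and black lines the group means. iKO 1 (orange circle) is the highest point of every gene, and iKO 3 (orange triangle) lies below all 3 WT livers for Fos and Egr1.

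One liver, iKO 1, held the highest CPM of all 6 livers for 10 of the 10 genes. The same was true of 25.5% of all tested genes. On the FPKM scale it was highest for 9, and Jun was highest in iKO 2. The livers labelled iKO were ordered alike for 8 of the 10 genes, with iKO 3 the lowest, and for Fosb and Ier3 iKO 2 was the lowest. Over all tested genes iKO 3 was the lowest liver labelled iKO in 29.9%. Among WT livers WT 2 was the lowest for 7 of the 10 genes (6 on the FPKM scale), against 29.7% of all tested genes. WT 2 was the lowest of all 6 livers for 5. Against each gene's own mean over 6 livers, the median of the 10 genes on the log2 scale was 1.75 in iKO 1, 0.43 in iKO 2, -0.52 in iKO 3, -0.37 in WT 1, -0.96 in WT 2 and -0.30 in WT 3. By this median iKO 3 lay below WT 1 and WT 3. Medians of all tested genes lay between -0.05 and 0.03.

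**Figure D2:**
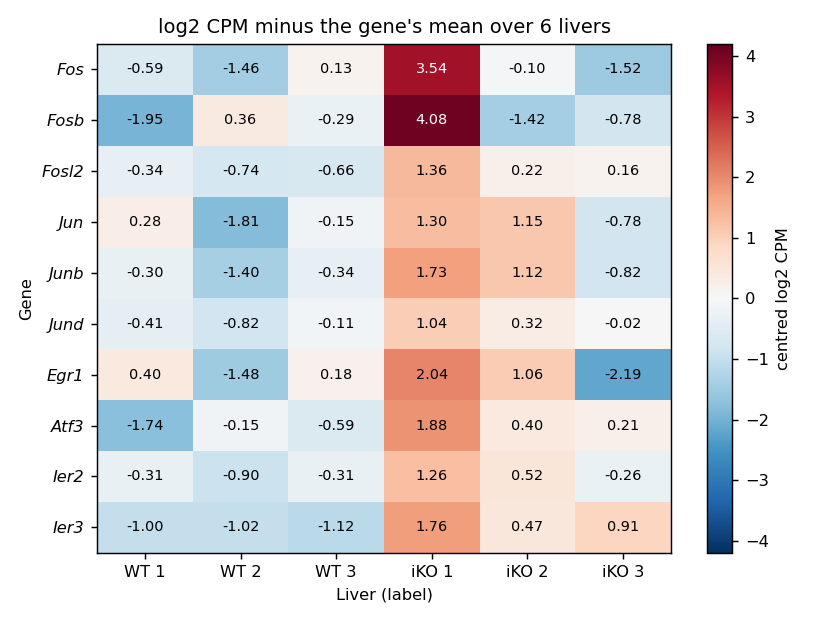
log2 CPM of each gene (rows) in each liver (columns) minus the gene's mean over the 6 livers; red is above and blue below the mean. The column of iKO 1 is above the mean for all 10 genes, that of iKO 2 for 8 and that of iKO 3 for 3.

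Among the Fos family, Fos, the inducible partner of JUN proteins, measured 8.60, 4.66 and 14.3 CPM across WT, against 152, 12.2 and 4.46 CPM across the livers labelled iKO (1, 2 and 3 in each case). Only iKO 1 lay above the WT range, at 16.6 times the WT mean, and iKO 3 lay below it. The difference came to 2.61 on the log2 scale (SE 1.55, adjusted p = 0.321), with a 95% interval of 0.340-fold to 110-fold. Without iKO 1 it was -0.14, with the sign reversed. Fosb, a paralog of Fos, had 5, 39 and 22 expected counts in WT and 361, 8 and 14 in iKO, that is 0.266, 1.73 and 1.06 CPM against 24.0, 0.429 and 0.726 CPM. Again iKO 1 alone was high, and the other livers of the 2 groups overlapped at counts that give little precision. The log2 fold change of 2.99 (SE 1.83, adjusted p = 0.327) became -0.82 without iKO 1. Fosl2 encodes FRA2, a FOS relative without the long transactivating tail of FOS. It measured 12.2, 9.19 and 9.76 CPM across WT, against 39.8, 18.0 and 17.3 CPM across iKO, with no overlap. Fosl2 rose by 1.27 on the log2 scale (SE 0.33, adjusted p = 0.0357). Without iKO 1 the rise was 0.77 and still called (adjusted p = 0.0301), while the call ended without WT 1 (0.0505), WT 2 (0.148) or WT 3 (0.122), with the length correction (0.0518), with limma on log2(FPKM + 1) (0.0598), and with a Y-linked term in the model (0.341), where the contrast rests on WT 1. Fosl1, the remaining family member, had at most 2.11 expected counts in a library and was not tested.

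No Jun family gene was called by edgeR, though all 3 had higher means in iKO. Jun, the classical AP-1 subunit, measured 89.1, 20.9 and 66.1 CPM across WT, against 181, 162 and 42.7 CPM across the livers labelled iKO. iKO 1 and iKO 2 were above every WT liver and iKO 3 lay within the WT range (log2 fold change 1.13, SE 0.72, adjusted p = 0.334). Junb, a family member that can restrain JUN, showed the same order, with 75.7, 35.3 and 73.3 CPM across WT, against 310, 203 and 52.7 CPM across iKO. Its difference came to 1.62 on the log2 scale (SE 0.66, adjusted p = 0.150), and it was called without iKO 3 (2.10, adjusted p = 0.0110). Jund, the member known for steady expression in resting cells, varied less. It measured 113, 85.0 and 139 CPM across WT, against 308, 188 and 148 CPM across iKO, so that the groups did not overlap, iKO 3 being 1.07 times the highest WT liver. The log2 fold change of 0.93 (SE 0.29) missed the threshold by edgeR (adjusted p = 0.0583; DESeq2 0.0123) and its 95% interval was 1.21-fold to 3.01-fold. It too was called without iKO 3 (adjusted p = 0.0407).

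**Figure D3:**
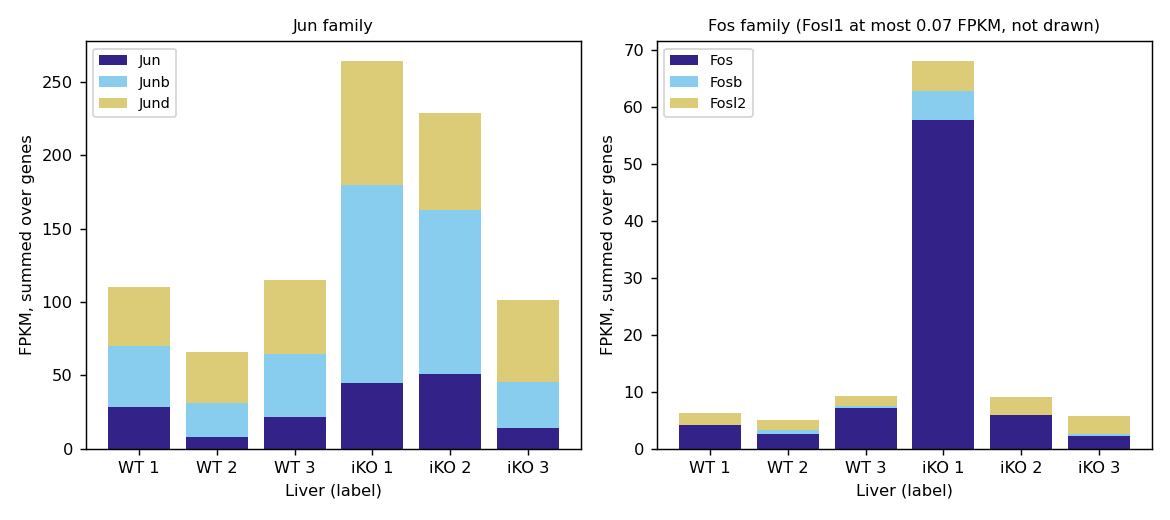
Deposited FPKM summed over the Jun family (left) and the Fos family (right) in each liver; both axes start at 0 and differ in scale. Jun family sums are 265 and 229 FPKM in iKO 1 and iKO 2 and 66.2 to 115 FPKM elsewhere, while the Fos family stands out in iKO 1 alone, at 68.1 FPKM.

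On the per-length FPKM scale the Jun family exceeded the Fos family in all 6 livers, but by unequal ratios. Jun, Junb and Jund together gave 110, 66.2 and 115 FPKM in WT and 265, 229 and 101 FPKM in the livers labelled iKO. Fos, Fosb, Fosl1 and Fosl2 together gave 6.39, 5.07 and 9.26 FPKM in WT and 68.1, 9.04 and 5.68 FPKM in iKO. The ratio of the sums was 17.2, 13.1 and 12.5 in WT, 3.88 in iKO 1, 25.3 in iKO 2 and 17.8 in iKO 3. iKO 1 had the lowest ratio and iKO 2 the highest, so these 2 livers, alike in Jun family level, differed in Fos family level. Fos made up 84.7% of the Fos family sum in iKO 1 and 40.5% in iKO 3, where Fosl2 made up 55.8%. Junb made up 51.0% and 49.0% of the Jun family sum in iKO 1 and iKO 2, and 30.9% to 38.2% in the other 4 livers. These ratios describe single livers and were not tested.

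Egr1, a growth factor-induced zinc finger factor, measured 167, 45.2 and 144 CPM across WT, against 521, 264 and 27.8 CPM across the livers labelled iKO. iKO 1 and iKO 2 were above the WT range and iKO 3 was below it, an 18.8-fold span between iKO 1 and iKO 3. The log2 fold change of 1.19 (SE 1.11, adjusted p = 0.509) had a 95% interval of 0.309-fold to 16.9-fold, and was 0.30 without iKO 1. Atf3 measured 0.903, 2.93 and 2.13 CPM across WT, against 12.3, 4.34 and 3.79 CPM across iKO. The groups did not overlap, and the log2 fold change of 1.75 (SE 0.56) was not called by edgeR (adjusted p = 0.0680; DESeq2 0.00434). Within WT, Atf3 and Fosb were lowest in WT 1, whereas Egr1 and Jun were highest there.

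Ier2 measured 28.7, 19.1 and 28.9 CPM across WT, against 85.7, 51.1 and 29.7 CPM across the livers labelled iKO. The groups did not overlap by a margin of 1.03-fold between iKO 3 and the highest WT liver, and the log2 fold change of 1.12 (SE 0.37) was not called by edgeR (adjusted p = 0.0778; DESeq2 0.00981). Ier3, which encodes a stress-response protein with roles in cell survival, gave the strongest test of the 10 genes. It measured 1.49, 1.47 and 1.35 CPM across WT, against 10.7, 4.29 and 5.86 CPM across iKO. The WT livers, at 28, 33 and 28 expected counts, lay within 1.10-fold of each other, and the lowest liver labelled iKO was at 2.99 times their mean. Ier3 rose by 2.26 on the log2 scale (SE 0.36, adjusted p = 0.00558), with a 95% interval of 2.74-fold to 8.41-fold. The call held whichever single library was left out (adjusted p from 0.00647 to 0.0251). With a Y-linked term in the model it was 2.21 and not called (adjusted p = 0.118). Ier3 had between 28 and 160 expected counts per library.

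**Figure D4:**
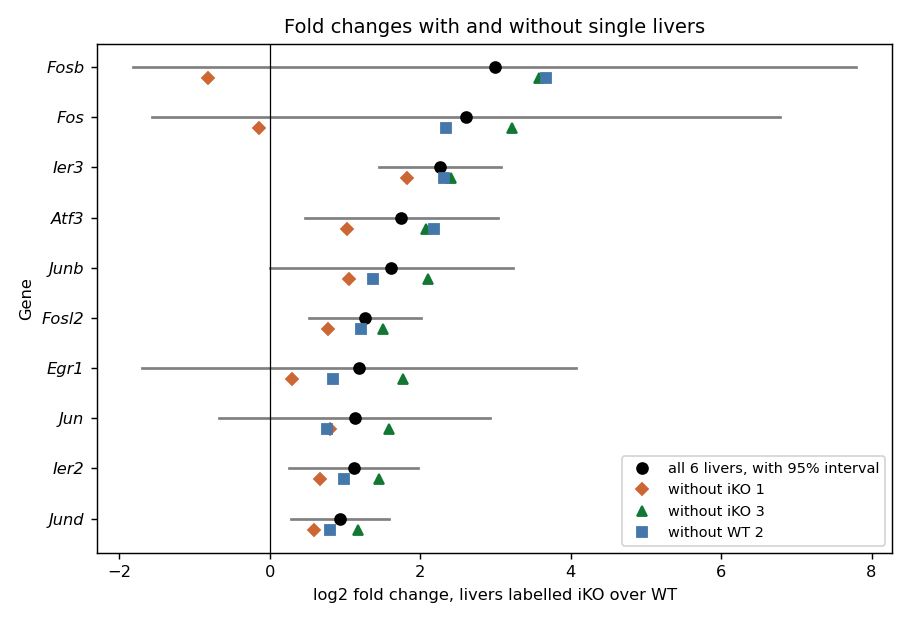
log2 fold change of each gene, livers labelled iKO over WT; black points with grey 95% intervals use all 6 livers, and coloured symbols leave out iKO 1, iKO 3 or WT 2. Without iKO 1 the values of Fos and Fosb fall below 0, to -0.14 and -0.82, and that of Ier3 stays at 1.82.

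Leaving out iKO 1 lowered the fold change of all 10 genes, which follows from its being the highest liver for each. The median went from 1.44 to 0.72 on the log2 scale, and Ier3 and Fosl2 remained called. Leaving out iKO 3 gave a median of 1.92 with 5 genes called higher, Fosl2, Junb, Jund, Ier2 and Ier3, where 3.61% of all tested genes were called higher. As iKO 3 was the lowest liver labelled iKO for 8 of the 10, a higher median without it likewise follows. With a Y-linked term in the model 0 of the 10 were called by edgeR, and the 10 fold changes stayed positive with a median of 1.17.

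The livers of a group differed more in most of these genes than in the median tested gene. The SD of log2 CPM over 3 livers had a median over the 10 genes of 0.71 in WT and 1.03 in iKO, against 0.22 and 0.27 for all tested genes. In iKO the SD of Fosb was 3.01, of Fos 2.61 and of Egr1 2.21, each above that of at least 99.6% of the 500 tested genes nearest in level. In WT the widest were Fosb (1.19), Jun (1.10) and Egr1 (1.03). In WT the SDs of Ier3 (0.068) and Fosl2 (0.21) lay below the median of all tested genes. Of the 500 genes nearest in level, 3.40% had a smaller WT SD than Ier3 and 61.4% a smaller one than Fosl2. Ier3 had 28, 33 and 28 expected counts in WT, so its small SD there carries little precision. The SD was wider in iKO than in WT for 10 of the 10 genes and for 60.7% of all tested genes. Without iKO 1 the median SD in iKO was 0.50, and without WT 2 that in WT was 0.22. The difference in spread between the groups was not tested.

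**Figure D5:**
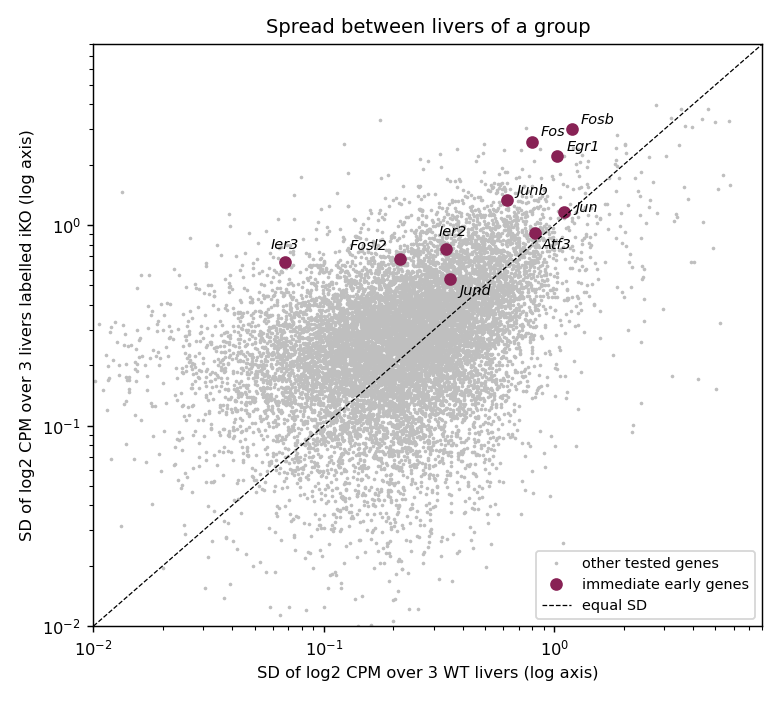
SD of log2 CPM over 3 livers labelled iKO against that over 3 WT livers, both on log axes, for all tested genes (grey; 32 genes with an SD below 0.01 are off the axes) and the 10 immediate early genes (purple). All 10 lie above the dashed line of equal SD, with Fosb, Fos and Egr1 highest and Ier3 far to the left.

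In WT the order of level per length was Jund (42.0 ± 8.03 FPKM), Egr1 (40.7 ± 20.2), Junb (35.9 ± 11.1), Jun (19.3 ± 10.5), Ier2 (18.3 ± 2.71), Fos (4.68 ± 2.32), Fosl2 (1.90 ± 0.178), Ier3 (1.47 ± 0.157), Atf3 (1.13 ± 0.655) and Fosb (0.307 ± 0.240 FPKM; all SD, n = 3). Neighbours differed by more than the sum of their SDs from Ier2 to Fos, from Fos to Fosl2 and from Fosl2 to Ier3; the other 6 neighbouring pairs did not. In the livers labelled iKO the order ran from Junb (92.7 ± 54.4 FPKM), Egr1 (76.8 ± 62.8) and Jund (68.7 ± 14.8) to Fosb (1.79 ± 2.82 FPKM; SD, n = 3), and 0 of the 9 neighbouring pairs differed by more than the sum of their SDs.

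Other early response genes moved in part. Of 38 tested genes in this list 12 were called higher and 2 lower, with a median log2 fold change of 0.28. Over all tested genes 7.31% were called higher and 15.4% in either direction, with a median of -0.02. The full list held 45 genes, of which Fosl1, Egr2, Egr3, Egr4, Nr4a3, Arc and Ptgs2 did not pass the filter on low counts. The largest rises among the called genes were the polo-like kinase gene Plk3, from 16.3 ± 4.24 to 261 ± 141 CPM (mean ± SD, 3 livers a group; adjusted p = 0.00234), the stress gene Gadd45g, from 15.7 ± 5.82 to 184 ± 130 CPM (adjusted p = 0.0135), the small Maf gene Maff, from 1.95 ± 0.381 to 17.1 ± 12.1 CPM (adjusted p = 0.00988) and the clock repressor Per1, from 10.9 ± 6.25 to 86.7 ± 8.01 CPM (adjusted p = 0.0121). iKO 1 was the highest liver for Plk3 (409 CPM), Gadd45g (334 CPM) and Maff (31.1 CPM), as for the 10 genes above. Per1 was not ordered that way, at 77.5, 90.9 and 91.8 CPM in iKO 1, 2 and 3. The 2 that fell were Plk2, by 1.14, and the antiproliferative gene Btg1, by 0.89 on the log2 scale. Plk3, Csrnp1, Cebpb and Cebpd kept their calls whichever library was left out. The Gadd45g and Maff calls ended without WT 2 (adjusted p = 0.0537 and 0.0609) or WT 3 (0.0678 and 0.0654), and the Per1 call without iKO 1 (0.0547). The Plk2 call ended when WT 1, WT 2, WT 3 or iKO 2 was left out (0.0666, 0.112, 0.0551 and 0.0644), and the Btg1 call when WT 2, WT 3, iKO 2 or iKO 3 was (0.0824, 0.0551, 0.0543 and 0.0544). Without WT 2 the list held 5 higher and 0 lower genes, without WT 3 it held 6 and 0, and with a Y-linked term in the model Per1 alone was called.

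All 10 immediate early genes had whole expected counts; counts that are not whole are a sign that reads may be shared with other genes. Of 23 upstream kinases, SRF cofactors and coactivators, 2 were called higher (the SRF cofactor gene Mrtfa and the acetyltransferase gene Crebbp, by 0.72 and 0.63 on the log2 scale) and 2 lower (Elk3 by 1.35 and the JNK2 gene Mapk9 by 0.51). The Mrtfa call held only without iKO 2, the Crebbp call only without WT 1 or iKO 2, and the Mapk9 call in 0 of the 6 fits that left out a library (adjusted p up to 0.130, 0.154 and 0.196, each without WT 2). Elk3 was not called without WT 2 (0.0804) or iKO 3 (0.0517). With upper-quartile factors Mrtfa and Crebbp were not called (0.0661 and 0.0510), and with RLE factors Mapk9 was not (0.0583). Of 18 feedback genes, which include dual specificity phosphatases, mRNA decay factors and NAB corepressors, Dusp8 was called higher, from 1.11 ± 0.263 to 6.97 ± 3.11 CPM (mean ± SD, 3 livers a group; adjusted p = 0.00341), and 0 lower. Dusp8 kept its call whichever library was left out and lost it with a Y-linked term (0.0546). The medians of these 2 lists were 0.01 and 0.06 on the log2 scale, against -0.02 for all tested genes. Over all tested genes 15.4% were called by edgeR and 7.31% were called higher. Whether either list departs from these shares was not tested.

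Genes with the pattern nearest to Fos, Jun and Egr1 over the 6 livers were searched among 11851 tested genes, by the root mean square (RMS) difference of centred log2 CPM. The nearest to Jun was Asns, asparagine synthetase, at an RMS of 0.22. Junb, which like all members was not part of the search, was at 0.35. The nearest of 11851 genes over 6 values is small by selection, so these values are not a like comparison. Asns measured 3.29, 1.02 and 2.22 CPM across WT, against 8.93, 6.06 and 1.71 CPM across the livers labelled iKO. Xirp1 (0.39) and Txnip (0.41), a thioredoxin-interacting protein gene, followed. Txnip was also the nearest to Egr1 (0.61), ahead of Phlda1 (0.65) and Asns (0.67). The nearest to Fos were C4a (0.71), whose counts were not whole in 6 libraries, the forkhead gene Foxq1 (0.74) and Tacc2 (0.80), also not whole in 6. Foxq1 measured 18.0, 17.3 and 22.1 CPM across WT, against 206, 67.8 and 17.5 CPM across iKO, so that it too was high in iKO 1. The 7 genes were not called by edgeR, with adjusted p between 0.117 and 0.240.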

How the data were processed

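Liver RNA-seq of 3 WT and 3 iKO mice was used. The submitters' processing notes name RSEM 1.2.12, Bowtie2 2.2.5, HISAT2 2.0.4 and mouse build mm9. The authors deposited expected counts, FPKM (per length and library size) and TPM (per length, to a common total) for 17441 genes. Strand handling was not given in the sources used here.

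Rounded expected counts went into edgeR 4.0.16 under R 4.3.3, with its filterByExpr, TMM factors and the robust quasi-likelihood test. P-values were adjusted by Benjamini-Hochberg over all 13160 tested genes, with a threshold of 0.05. Each SE was derived from the fold change and its F statistic, and 95% intervals are unadjusted. CPM values are TMM-normalised and log2 CPM values use a prior count of 2. Depth limits precision for genes near 1 CPM, such as Fosb.

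On simulated data for the iKO against WT comparison (12972 genes), 36.1% of genes changed by 1 on the log2 scale and 92.5% of those changed by 2 were recovered, and 3 of 124 calls were false. There 100 genes were changed at each size, and the rates leave out changed genes that did not pass the filter. Libraries were drawn independently, with no Y-linked split or shared shift of a single liver. Whether these rates hold for the real libraries was not tested. Alternatives were DESeq2 1.42.0, limma 3.58.1 on log2(FPKM + 1) or log2(FPKM + 0.1), upper-quartile or RLE factors, no filter, leaving out each library and a replicate block. Chosen after seeing the data were a Y-linked term, the 4 libraries with Y-linked reads, and a transcript length correction (lowess, span 0.3). The members, gene lists and naming rule were chosen with earlier results of these data known. The rule names the members, Nek7, up to 4 called genes a direction of each list, and for Fos, Jun and Egr1 the 3 genes nearest in pattern. The result of 1 list, of bZIP partner genes, is not reported here.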

Additional observations from a re-analysis of the deposited data

How the results depend on the processing

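Under RLE and upper-quartile factors, no filter and the replicate block, the same 2 of the 10 genes were called, Fosl2 and Ier3. DESeq2 called 5 (Fosl2, Jund, Atf3, Ier2 and Ier3; Fosb had no adjusted p), and over all genes 2510, of which 1310 were higher, 9.69% of the genes with an adjusted p. Limma on log2(FPKM + 1), limma on log2(FPKM + 0.1) and the length correction called 1 each (Ier3). The term for Y-linked reads called 0 of the 10, as did the 4 libraries with such reads. Leaving out 1 library gave 1 to 5 calls among the 10, and 491 to 1840 among all tested genes, where all 6 libraries gave 2024 (962 higher, 1062 lower). The latter count was 184 with the Y-linked term and 143 in the 4 libraries. Limma on log2(FPKM + 1) split 1352 calls into 421 higher and 931 lower, with a median of all genes of -0.12, and on log2(FPKM + 0.1) 1353 calls into 427 and 926, with a median of -0.20. Leaving out 1 library moved Fos between -0.14 and 3.21 and Fosb between -0.82 and 3.67 on the log2 scale, both reversed without iKO 1, and Nek7 reversed with the length correction (0.015). The median SD of the 10 genes ranged from 0.22 to 0.70 in WT when 1 WT library was left out, and from 0.50 to 1.32 in iKO. The cause of these shifts was not tested. The labels do not say whether same-numbered livers share more than a number. Their deviations correlated at 0.21, 0.22 and 0.05. iKO 1 correlated best with WT 1 and iKO 2 with WT 2, while iKO 3 also correlated best with WT 2 (0.33). The replicate block gave 2 calls of the 10 and 1710 in all. Low counts limit Fosb, Atf3 and Ier3 most.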

Other observations

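Several early response genes outside the 10, none of them called by edgeR, were also highest in iKO 1. They were chosen after their values were seen. The orphan receptor gene Nr4a1 measured 1.43, 2.66 and 2.71 CPM across WT, against 96.4, 4.66 and 4.25 CPM across the livers labelled iKO (adjusted p = 0.186 by edgeR). Myc measured 5.84, 2.97 and 4.98 CPM across WT, against 136, 35.0 and 10.4 CPM across iKO (adjusted p = 0.0915). Btg2, an antiproliferative gene, measured 29.8, 21.6 and 36.9 CPM against 191, 98.3 and 38.1 CPM (adjusted p = 0.0736), and the phosphatase gene Dusp1 35.0, 18.6 and 29.2 CPM against 190, 50.1 and 62.5 CPM (adjusted p = 0.0723). For all 4 genes the groups did not overlap, and DESeq2 called Myc, Btg2 and Dusp1. EdgeR called Myc and Btg2 without iKO 3, and Dusp1 without iKO 1, without iKO 2 and with the replicate block. Ccn1, Ier5 and Hbegf, which are also early response genes, had fold changes below 0 on the log2 scale (-0.54, -0.47 and -0.28; adjusted p = 0.105, 0.294 and 0.603), and iKO 1 was not the highest liver for any of the 3.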
